A study of Mus musculus with 8 samples.

Results

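The 48 genes described here belong to the transforming growth factor beta (TGF-beta) and bone morphogenetic protein (BMP) pathway: ligands, receptors, secreted inhibitors, latency proteins, Smad proteins and Id genes. They were chosen by symbol, with earlier results of these data known. Each was measured by a probe set whose platform annotation gives that symbol alone. This held for all 48 of them, among 19938 such genes on the array. RNA came from cells carrying the epithelial surface protein Epcam, collected with magnetic beads from dissociated mouse lungs at embryonic stage E18.5. There were 4 control arrays and 4 arrays of Mst1/2 CKO lungs, which lack Mst1 and Mst2, kinases of the Hippo pathway, in cells derived from epithelial progenitors through ShhCre, a Cre recombinase driven from the Shh locus. The labels name the controls only as Control, so whether they carried ShhCre or floxed alleles is not known. This design asks how transcripts of the lung epithelium differ once these kinases are lost.

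Ligands of the family bind pairs of type I and type II receptor kinases. TGF-beta and activin receptors phosphorylate Smad2 and Smad3, BMP receptors phosphorylate Smad1, Smad5 and Smad9, and both sets enter the nucleus with Smad4. Secreted inhibitors, decoy receptors, inhibitory Smads and ubiquitin ligases limit the signal, and several of them are themselves induced by it. In the developing lung BMP4 is known from the distal bud tips, Id genes are standard readouts of BMP signalling, and TGF-beta is stored in the matrix in a latent form.

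Of the 48 genes, 22 changed between knockout and control (45.8%), 8 higher and 14 lower. Over all 19938 genes 18.8% changed, 8.60% higher and 10.2% lower. A gene was called changed at an adjusted p under 0.05 in limma, adjusted by Benjamini-Hochberg over all genes. A fit of only the genes above the median level kept 42 of the 48. Of these 21 passed (50%), against 30.9% of the 9969 genes kept. Control and knockout values were fully separate in 23 of the 48 genes (47.9%), against 22.1% of all genes. Without knockout replicate 3 the count of higher genes was 5 and that of lower genes 12. The median difference of the 48 was −0.013 on the log2 scale, against −0.016 over all genes. The median size of a difference was 0.25 among the 48 and 0.095 over all genes. Among the changed genes alone the sizes were 0.21 to 1.25, with a median of 0.38, against 0.41 for every changed gene of the array. Levels are given as log2 expression. A signed value is the knockout mean less the control mean, SE is its standard error from limma, and every group holds n = 4 arrays.

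**Figure D1:**
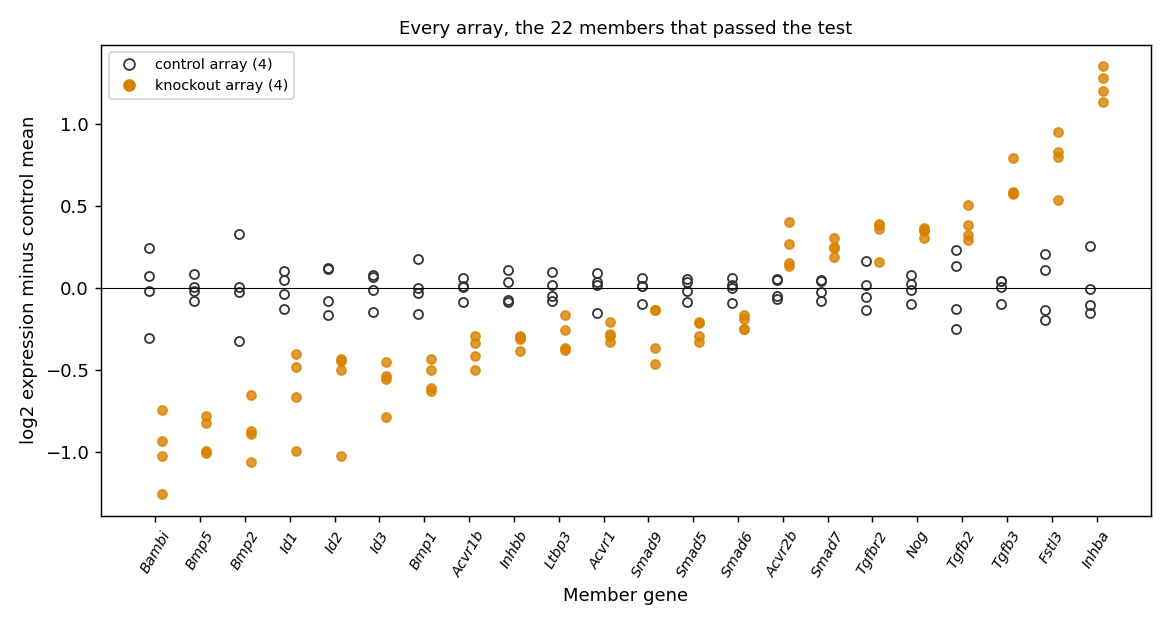
Log2 expression of the 22 changed genes in each of the 8 arrays, with the control mean of each gene set to 0 (open circles control, filled circles knockout). Inhba has the largest rise (1.25) and Bambi the largest fall (−0.99), and Tgfbr2 is the gene in which a knockout array meets the control values.

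The arrays as a whole bear on these values in the following ways. Stk4, which encodes Mst1, read 9.59, 9.84, 9.59 and 9.62 in control and 9.45, 9.44, 9.31 and 9.24 in knockout arrays (adjusted p = 0.0188 in limma), and whether its probe set lies in the deleted part is not known. Epithelial markers averaged 11.28 to 11.40 in control and 11.33 to 11.40 in knockout arrays, and of 12 such markers 2 were higher and 2 lower. Of 15 mesenchymal markers 4 were higher and the others did not pass, and their mean was 7.95, 7.98, 8.04 and 8.32 in control and 8.19, 8.24, 8.61 and 8.63 in knockout arrays. Of 10 endothelial markers 5 were higher (mean 9.16 to 9.49 against 9.54 to 9.63), of 6 mesothelial markers 2 (8.41 to 9.06 against 8.998 to 9.48), and of 10 leukocyte markers 1 (9.27 to 10.15 against 9.76 to 10.08). The mean of 3 measured erythroid markers was 6.74 to 6.89 against 6.75 to 7.11. Over all genes 8.60% were higher and 10.2% lower. An array has no true zero, so absence of these cells cannot be read from it. Of the alveolar markers, 9 of 10 type 1 markers were higher and 9 of 10 type 2 markers lower. In such bulk samples fewer cells of a type and less RNA per cell cannot be told apart. Xist differed within the groups, with 12.30, 5.85, 12.32 and 5.90 in control and 10.31, 12.36, 12.43 and 6.33 in knockout arrays. High and low arrays occurred in both groups. Knockout replicate 1 lay between the high and the low arrays, and why was not tested. The labels call the arrays biological replicates without naming animals, so p-values measure the spread between these samples.

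Upstream sequences are shown for the Id genes, of which 3 of 4 fell, and for Bmp5 and Inhba, the ligand genes with the largest fall and the largest rise. Promoters of 35 of the 48 genes were used, from the RefSeq table of build GRCm38.p6. Each line gives the 250 bases before the annotated start, 5′ to 3′ on the strand of the gene. Id2 lies at chr12:25096093-25096342 on the minus strand, and on the plus strand are Id3 at chr4:136143572-136143821, Id4 at chr13:48260866-48261115, Bmp5 at chr9:75775115-75775364 and Inhba at chr13:16011601-16011850. Capitals mark matches on either strand to CAGACA (a Smad-binding element), GGCGCC (a GC-rich Smad element) or CATTCC (a motif of the Hippo pathway's Tead factors).
Id2: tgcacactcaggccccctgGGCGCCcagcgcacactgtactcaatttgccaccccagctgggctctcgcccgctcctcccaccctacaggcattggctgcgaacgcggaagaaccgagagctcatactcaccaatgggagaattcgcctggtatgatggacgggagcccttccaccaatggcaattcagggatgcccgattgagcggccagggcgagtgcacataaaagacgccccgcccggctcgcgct
Id3: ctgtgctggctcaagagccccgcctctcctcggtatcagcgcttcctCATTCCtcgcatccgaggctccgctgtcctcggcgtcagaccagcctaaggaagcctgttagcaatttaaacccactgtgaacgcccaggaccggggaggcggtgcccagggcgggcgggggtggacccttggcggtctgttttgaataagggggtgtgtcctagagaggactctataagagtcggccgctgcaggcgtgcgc
Id4: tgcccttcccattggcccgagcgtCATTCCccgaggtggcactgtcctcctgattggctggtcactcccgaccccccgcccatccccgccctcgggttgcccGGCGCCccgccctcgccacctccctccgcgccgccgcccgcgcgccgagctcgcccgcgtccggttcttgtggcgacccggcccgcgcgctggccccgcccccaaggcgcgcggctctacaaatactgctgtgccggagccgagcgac
Bmp5: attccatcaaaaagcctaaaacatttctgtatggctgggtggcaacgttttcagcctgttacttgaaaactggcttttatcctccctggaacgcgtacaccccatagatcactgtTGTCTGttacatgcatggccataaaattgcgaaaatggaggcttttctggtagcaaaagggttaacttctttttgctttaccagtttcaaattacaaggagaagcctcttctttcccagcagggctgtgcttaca
Inhba: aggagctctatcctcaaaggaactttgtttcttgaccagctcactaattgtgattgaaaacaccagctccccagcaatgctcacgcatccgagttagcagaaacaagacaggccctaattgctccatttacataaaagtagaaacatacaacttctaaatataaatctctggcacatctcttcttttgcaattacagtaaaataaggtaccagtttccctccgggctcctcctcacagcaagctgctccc
The GC-rich element begins 231 bases before the start in Id2 and 148 bases before it in Id4. The Tead motif begins 203 bases before the start in Id3 and 226 bases before it in Id4, and the Smad-binding element of Bmp5 begins 135 bases before it, on the opposite strand. The Inhba window holds none of these letters. Some genes have several annotated starts, so the 35 genes gave 43 windows, of which 7 held CAGACA (16.3%), 12 GGCGCC (27.9%) and 2 CATTCC (4.65%). Over 32851 annotated promoters of the same length the shares were 17.1%, 9.59% and 12.6%. These promoters were not matched to the 43 windows for base composition, and no difference in share was tested. Counted by gene, GGCGCC was found in 3 of 10 lower genes, 0 of 5 higher genes and 8 of 20 that did not pass. Overlapping windows of Ltbp4 share the same GGCGCC site. Among the changed genes, the promoters of Id1, Bambi, Bmp2, Bmp1, Tgfb3, Nog and Smad7 were not used here, so these counts leave them out.

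Of 3 TGF-beta ligand genes 2 were higher in knockout cells, as was the type II receptor gene. Tgfb3, which encodes the third TGF-beta isoform, read 9.60, 9.50, 9.64 and 9.64 in control and 10.18, 10.17, 10.17 and 10.39 in knockout arrays, a rise of 1.55-fold (0.64, SE 0.068, adjusted p = 1.02e-04 in limma). The groups lay well apart, with knockout replicate 4 above the other knockout arrays. Tgfb2, the isoform known from developing epithelia, read 10.98, 10.50, 10.62 and 10.88 against 11.13, 11.25, 11.07 and 11.04, a rise of 1.30-fold (0.38, SE 0.10, adjusted p = 0.0263 in limma). The gap between the groups was narrow, and the control arrays spread more than the knockout arrays. The Tgfb2 call ended without control replicate 2 or 3 (adjusted p = 0.0597 and 0.0813) and without knockout replicate 1, 2 or 3 (0.0547, 0.0749 and 0.0524). Tgfb1, the most widely expressed isoform, did not pass (0.023, SE 0.12, adjusted p = 0.929 in limma), and its highest value was that of knockout replicate 4, at 10.06.

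Tgfbr2, the type II receptor that binds TGF-beta first, read 10.37, 10.30, 10.21 and 10.51 in control and 10.74, 10.71, 10.73 and 10.51 in knockout arrays. Knockout replicate 4 lay at the level of the highest control array, while the other knockout arrays were above all controls. The rise was 1.25-fold (0.33, SE 0.079, adjusted p = 0.0152 in limma), and the Tgfbr2 call ended without knockout replicate 3 (0.31, adjusted p = 0.0503). The kinase partner Tgfbr1 (−0.17, SE 0.067, adjusted p = 0.117) and the co-receptor Tgfbr3 (0.16, SE 0.11, adjusted p = 0.417) did not pass in limma.

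Of 6 genes for latency and matrix proteins 2 fell and 4 did not pass. Bmp1, a secreted metalloprotease that trims procollagens and cleaves the BMP inhibitor chordin and is no BMP ligand, read 11.12, 10.91, 10.95 and 10.79 in control and 10.45, 10.33, 10.51 and 10.32 in knockout arrays (1.45-fold lower, −0.54, SE 0.079, adjusted p = 7.54e-04 in limma). No knockout array of Bmp1 reached the control values. Ltbp3, which binds latent TGF-beta, read 11.22, 11.04, 11.14 and 11.07 against 10.96, 10.75, 10.76 and 10.87 (1.22-fold lower, −0.29, SE 0.068, adjusted p = 0.0129 in limma). All knockout values of Ltbp3 lay below all control values.

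The other 4 genes had differences above 0 that did not pass. Ltbp2, a relative of fibrillin, read 8.48, 8.29, 8.41 and 8.62 in control and 8.48, 8.61, 9.23 and 9.39 in knockout arrays (0.48, SE 0.18, adjusted p = 0.106 in limma). Knockout replicates 1 and 2 lay within the control range, and replicates 3 and 4 above it. Those are the knockout arrays with the highest mesenchymal marker means, 8.61 and 8.63, and with that mean as a covariate the difference of Ltbp2 was −0.028. Ltbp1 too was highest in knockout replicates 3 and 4 (8.18, 8.13, 8.60 and 8.85 in knockout, 8.06 to 8.36 in control, 0.25, SE 0.15, adjusted p = 0.302 in limma) and was −0.14 with the covariate. The covariate is itself higher on average in the knockout group, and the part of other cells in these differences was not tested. Tgfbi, a matrix adhesion protein named for its induction by TGF-beta, ranged from 9.78 to 10.30 in control and from 10.21 to 10.78 in knockout arrays (0.38, SE 0.13, adjusted p = 0.0730 in limma). Ltbp4 was close to the threshold as well (0.23, SE 0.078, adjusted p = 0.0714 in limma), with all 4 knockout values above all control values and knockout replicate 4 highest at 10.20.

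The largest change among the 48 genes was that of an activin subunit. Inhba, whose product dimerises into activin A, read 6.70, 6.56, 6.60 and 6.96 in control and 7.91, 7.84, 7.99 and 8.06 in knockout arrays. The lowest knockout array stood far above the highest control array. The rise was 2.37-fold (1.25, SE 0.091, adjusted p = 1.40e-05 in limma). Whether the control arrays were at the background of this probe set is not known. Inhbb, the beta subunit of activin B, moved the other way, with 7.96, 8.08, 7.97 and 8.16 in control and 7.75, 7.74, 7.66 and 7.75 in knockout arrays (1.25-fold lower, −0.32, SE 0.062, adjusted p = 0.00456 in limma). The groups of Inhbb did not overlap. Inha, the alpha subunit that turns these dimers into inhibins, did not pass (−0.045, SE 0.083, adjusted p = 0.784 in limma).

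Among activin and BMP receptors 2 of 7 fell and 1 rose. Acvr1b, the type I receptor ALK4 of activin, read 9.49, 9.54, 9.39 and 9.48 in control and 9.14, 9.18, 9.07 and 8.98 in knockout arrays (1.31-fold lower, −0.38, SE 0.064, adjusted p = 0.00168 in limma). Acvr1, the type I receptor ALK2 that carries BMP signals, read 8.92, 8.86, 8.85 and 8.67 against 8.54, 8.55, 8.62 and 8.50 (1.21-fold lower, −0.27, SE 0.065, adjusted p = 0.0140 in limma). In both genes all knockout arrays were below all controls. Acvr2b, a type II receptor shared by activins and some BMPs, read 7.71, 7.60, 7.72 and 7.62 in control and 7.82, 7.80, 7.94 and 8.07 in knockout arrays (1.18-fold higher, 0.24, SE 0.072, adjusted p = 0.0381 in limma). The groups of Acvr2b were only just apart. Its call ended without any 1 of control replicates 1 to 4 (adjusted p = 0.0594, 0.0912, 0.0586 and 0.0891) and without knockout replicate 3 or 4 (0.0999 and 0.0626). The BMP receptors proper showed differences close to 0 that did not pass: Bmpr1a by −0.017 (SE 0.085), Bmpr1b by 0.012 (SE 0.14) and Bmpr2 by 0.058 (SE 0.058). Acvr2a, the other activin type II receptor, did not pass either (0.024, SE 0.062).

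BMP ligand genes fell in 2 of 6 cases, Bmp5 and Bmp2. Bmp5 read 10.40, 10.42, 10.34 and 10.50 in control and 9.59, 9.64, 9.41 and 9.42 in knockout arrays (1.86-fold lower, −0.90, SE 0.070, adjusted p = 1.91e-05 in limma). Its arrays were tight within each group and far apart between them. Bmp2, a ligand close to BMP4 in sequence, read 8.55, 8.88, 8.52 and 8.22 against 7.89, 7.67, 7.48 and 7.65 (1.82-fold lower, −0.87, SE 0.13, adjusted p = 7.84e-04 in limma). The control arrays of Bmp2 spread widely, and even the lowest of them was above every knockout array.

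The other BMP ligands did not pass. Bmp4, the ligand of the distal bud, read 11.20, 10.97, 11.00 and 11.06 in control and 11.34, 11.23, 11.16 and 11.17 in knockout arrays (0.17, SE 0.069, adjusted p = 0.119 in limma), so the groups overlapped slightly. Bmp6 came nearest to the threshold, with 7.49, 7.60, 7.61 and 7.78 against 7.68, 7.89, 8.07 and 8.33 (0.37, SE 0.12, adjusted p = 0.0621 in limma). Knockout replicate 1 of Bmp6 lay within the control range, without it the gene passed (adjusted p = 0.0132), and with the mesenchymal covariate the difference was 0.052. Bmp3 (−0.026, SE 0.097), a relative known to oppose other BMPs, and Bmp7 (−0.013, SE 0.12) showed no difference beyond their spread.

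Of 5 secreted inhibitors 2 rose and 3 did not pass. Fstl3, a follistatin-like protein that binds activin and myostatin, read 9.63, 9.39, 9.33 and 9.73 in control and 10.47, 10.32, 10.35 and 10.06 in knockout arrays (1.72-fold higher, 0.78, SE 0.11, adjusted p = 5.39e-04 in limma). Knockout replicate 4 was the lowest of the knockout arrays and still above every control. Nog, the BMP antagonist noggin, read 7.02, 7.05, 7.11 and 6.93 against 7.39, 7.33, 7.38 and 7.38 (1.27-fold higher, 0.35, SE 0.057, adjusted p = 0.00155 in limma). The knockout arrays of Nog lay close together, above every control. Follistatin itself, Fst (0.13, SE 0.071, adjusted p = 0.260), its distant relative Fstl1 (−0.13, SE 0.085, adjusted p = 0.385) and the BMP antagonist Grem1 (−0.17, SE 0.10, adjusted p = 0.321) did not pass in limma.

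**Figure D2:**
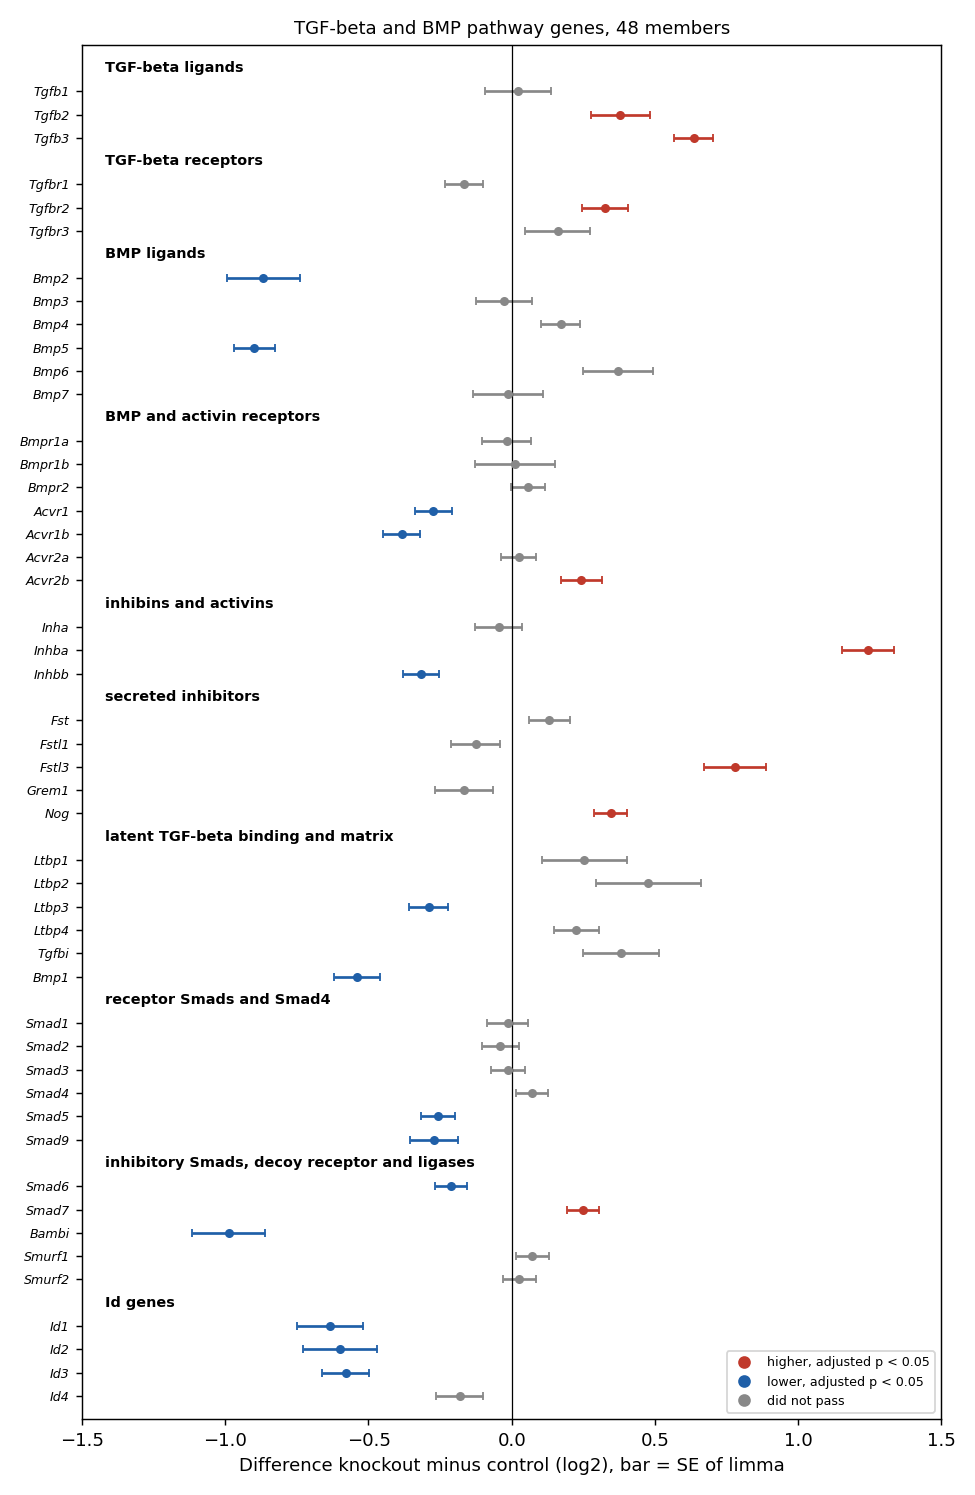
Difference of each of the 48 genes, knockout minus control on the log2 scale, grouped by role, with limma's SE as bars (4 arrays per group). Genes past the adjusted p threshold are red where higher (8) and blue where lower (14), and the 3 lower Id genes lie between −0.63 and −0.58.

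The signal-carrying Smads changed little, and 2 of 6 passed, Smad5 and Smad9 of the BMP branch. Neither passed with the mesenchymal covariate, and whether the branches differ was not tested. Smad5 read 9.65, 9.63, 9.57 and 9.51 in control and 9.39, 9.38, 9.26 and 9.30 in knockout arrays (1.20-fold lower, −0.26, SE 0.059, adjusted p = 0.0105 in limma), with no overlap. Smad9 read 8.98, 8.82, 8.93 and 8.93 against 8.78, 8.78, 8.55 and 8.46 (1.21-fold lower, −0.27, SE 0.083, adjusted p = 0.0438 in limma). Knockout replicates 1 and 2 of Smad9 came close to the lowest control array. The Smad9 call ended without control replicate 1, 3 or 4 (adjusted p = 0.111, 0.100 and 0.0898), without knockout replicate 3 or 4 (0.127 and 0.0758) and with each array centred on its median (0.0684). Smad1, the third BMP Smad (−0.014, SE 0.072), the TGF-beta and activin Smads Smad2 (−0.039, SE 0.066) and Smad3 (−0.013, SE 0.060), and the shared Smad4 (0.071, SE 0.057) did not pass.

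Of the intracellular brakes and the decoy receptor, 2 fell and 1 rose. Bambi, a pseudoreceptor without a kinase domain that is a target of BMP and Wnt signals, read 9.18, 9.35, 9.09 and 8.81 in control and 8.37, 7.85, 8.18 and 8.09 in knockout arrays (1.98-fold lower, −0.99, SE 0.13, adjusted p = 3.32e-04 in limma). Its groups were separated although each spread widely. The inhibitory Smads moved in opposite directions. Smad6, which acts chiefly on BMP receptors, read 8.95, 8.80, 8.90 and 8.89 against 8.64, 8.64, 8.70 and 8.72 (1.16-fold lower, −0.21, SE 0.056, adjusted p = 0.0239 in limma). Smad7, which acts on TGF-beta receptors as well, read 9.49, 9.36, 9.42 and 9.49 against 9.69, 9.68, 9.63 and 9.75 (1.19-fold higher, 0.25, SE 0.056, adjusted p = 0.0105 in limma). Neither gene had overlapping groups, and both changes were small. The Smad6 call ended without control replicate 1, 3 or 4 (adjusted p = 0.0704, 0.0617 and 0.0506), without knockout replicate 1, 2 or 3 (0.0667, 0.0703 and 0.0523) and after quantile normalization (0.0639), whereas the Smad7 call held without any single array. The ubiquitin ligases Smurf1 (0.073, SE 0.059) and Smurf2 (0.026, SE 0.057) did not pass. Smurf2 alone among the 48 had a second probe set, in which the difference was 0.22, without a test.

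The Id genes, which encode partners that keep basic helix-loop-helix factors off DNA, were the role in which most members fell: 3 of 4. Id1 read 10.05, 9.99, 9.91 and 9.82 in control and 9.54, 9.46, 9.28 and 8.95 in knockout arrays (1.55-fold lower, −0.63, SE 0.12, adjusted p = 0.00304 in limma). Id2, a marker of the distal lung bud, read 12.37, 12.38, 12.09 and 12.17 against 11.82, 11.81, 11.75 and 11.23 (1.51-fold lower, −0.60, SE 0.13, adjusted p = 0.00801 in limma). Id3 read 9.78, 9.65, 9.88 and 9.86 against 9.34, 9.24, 9.26 and 9.01 (1.49-fold lower, −0.58, SE 0.083, adjusted p = 6.36e-04 in limma). The groups of all 3 genes were apart, and knockout replicate 4 was the lowest array in each. Id4 read 7.66, 7.72, 7.66 and 7.996 against 7.62, 7.65, 7.53 and 7.51 and did not pass (−0.18, SE 0.081, adjusted p = 0.165 in limma), although its knockout values too lay below every control. Whether Id4 differs from the other Id genes was not tested. Knockout replicate 4 also had the lowest mean of the alveolar type 2 markers, 10.77 against 11.07 to 11.35 in the other knockout arrays, and its mesenchymal and mesothelial marker means were the highest (8.63 and 9.48). With the mesenchymal mean as a covariate Id3 kept its call (−0.53, adjusted p = 0.0213), while Id1 (−0.35, adjusted p = 0.0781) and Id2 (−0.36, adjusted p = 0.214) did not. The Id1 and Id2 calls held without knockout replicate 4.

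**Figure D3:**
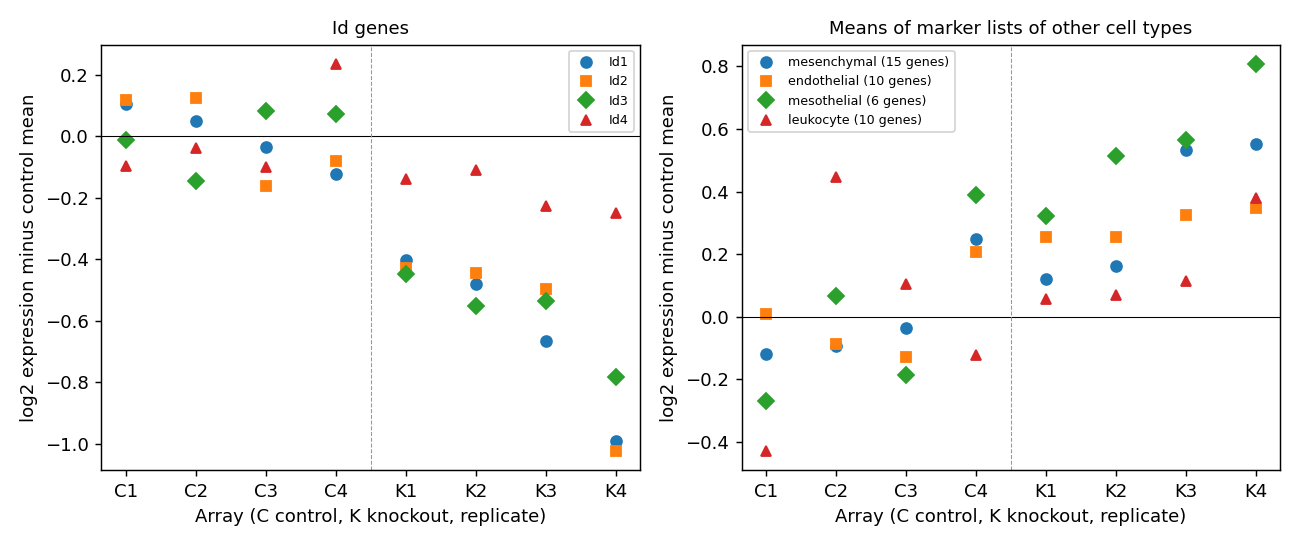
Left, log2 expression of the 4 Id genes in each array relative to the control mean (C control, K knockout, number = replicate). Right, the means of the mesenchymal, endothelial, mesothelial and leukocyte marker lists in the same arrays, drawn the same way: Id1, Id2 and Id3 are lowest and the mesenchymal and mesothelial means highest in knockout replicate 4.

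Some markers of other cell types were higher in knockout arrays. They were 4 of 15 in the mesenchymal list, whose means overlapped between the groups, and 5 of 10 in the endothelial list, whose means did not overlap. The differences were also fitted with the mesenchymal marker mean of each array as a covariate, and not with the endothelial mean. In that fit 10 of the 48 genes passed (20.8%), 4 higher and 6 lower, against 8.27% of all genes. The genes that passed were Inhba (1.05), Fstl3 (0.82), Tgfb3 (0.55) and Nog (0.38) upward, and Bambi (−0.84), Bmp5 (−0.82), Bmp2 (−0.59), Id3 (−0.53), Bmp1 (−0.47) and Inhbb (−0.35) downward. All 10 had passed without the covariate, in the same direction. The other 12 changed genes kept their direction and did not pass, among them Tgfb2 (0.41, adjusted p = 0.146), Tgfbr2 (0.32, adjusted p = 0.136), Acvr1b (−0.30, adjusted p = 0.0581), Smad7 (0.23, adjusted p = 0.132), Smad6 (−0.25, adjusted p = 0.0872) and Ltbp3 (−0.24, adjusted p = 0.188). Smad9 was at −0.12, Smad5 at −0.16, Acvr1 at −0.21 and Acvr2b at 0.15. Tgfb2 and Smad6 had larger differences than without the covariate, and the other genes that lost their call had smaller ones. A lost call alone therefore does not show a smaller difference. The covariate is itself higher on average in the knockout group, and the part of other cells in the results was not tested beyond this fit. Without knockout replicates 1 and 4 together, 6 genes were higher and 11 lower.

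**Figure D4:**
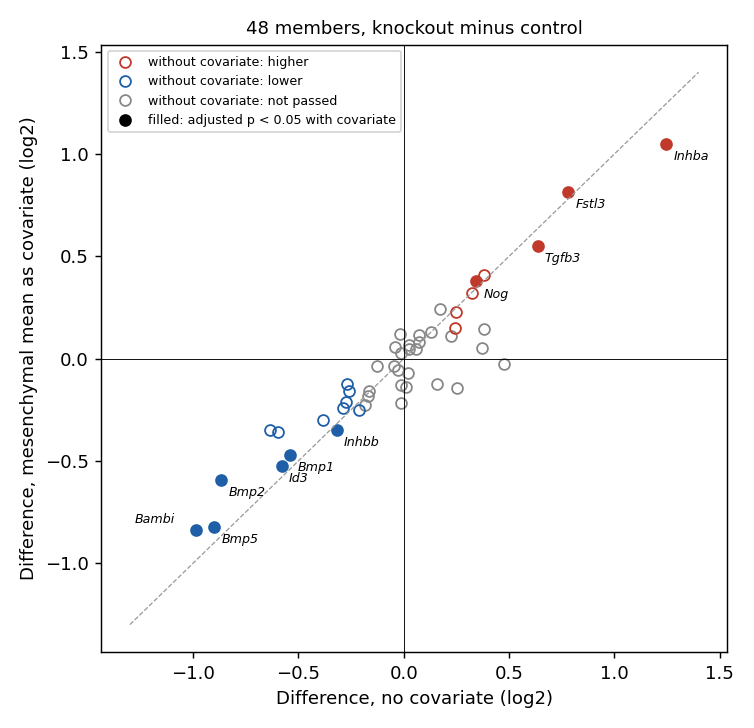
Difference of the 48 genes without a covariate (horizontal) and with the mesenchymal mean in the model (vertical), both on the log2 scale, with the line of equality dashed. Filled points, which are named, pass with the covariate (10), and Inhba (1.25 and 1.05) and Bambi (−0.99 and −0.84) remain at the ends of the range.

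Genes that did not pass often peaked in the same array: 12 of the 26 had their highest value of all 8 arrays in knockout replicate 4, 3 in replicate 1 and 2 in replicate 3. Of the 14 genes that fell, 7 were lowest in knockout replicate 4, 4 in replicate 3, 2 in replicate 2 and 1 in replicate 1. The same counts were not made over all genes, so whether this array stands out more in these genes than elsewhere is not known.

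Further genes of the pathway were taken from a list of 78, also chosen with earlier results known, of which 74 were measured. Of these 14 were higher and 5 lower (25.7%), against the 18.8% of all genes, and their median difference was 0.030. The count of higher genes was 9 without knockout replicate 3, and that of lower genes was 8 without knockout replicate 4. In the fit of only genes above the median level 15 of 39 further genes passed (38.5%), against 30.9% of the genes kept. Of 10 genes for proteins that hold, process or activate latent TGF-beta, 3 were higher. Itgb6, the integrin chain that activates latent TGF-beta on epithelia, read 10.94, 10.62, 10.70 and 11.06 in control and 11.74, 11.59, 11.69 and 11.47 in knockout arrays (1.73-fold, 0.79, SE 0.10, adjusted p = 3.22e-04 in limma). Htra1, a secreted protease that can cleave TGF-beta proteins, rose 1.87-fold (0.90, SE 0.099, adjusted p = 1.21e-04 in limma). In both genes all knockout values were above all controls, and both passed with the mesenchymal covariate (0.75 and 0.74).

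The further ligands changed in 4 of 19 cases, 2 in each direction. Bmp8b, a BMP ligand known from germ cells and brown fat, read 8.13, 7.87, 7.85 and 7.93 in control and 8.82, 9.15, 8.81 and 8.92 in knockout arrays (1.97-fold higher, 0.98, SE 0.091, adjusted p = 4.68e-05 in limma). Gdf5, a ligand of joint development, was 1.44-fold lower (−0.52, SE 0.099, adjusted p = 0.00378 in limma). Of 9 receptors and co-receptors 2 were higher and 1 lower, among them Amhr2, the receptor of anti-Müllerian hormone (0.34, SE 0.061, adjusted p = 0.00262), and Acvr1c, the type I receptor ALK7 (−0.61, SE 0.11, adjusted p = 0.00346 in limma).

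Of 15 further extracellular inhibitors 1 rose and 1 fell. Nbl1, a BMP antagonist of the DAN family, was 1.59-fold higher (0.67, SE 0.083, adjusted p = 2.60e-04 in limma), and the follistatin-like Fstl4 was 1.72-fold lower (−0.78, SE 0.14, adjusted p = 0.00295 in limma). Among 14 intracellular regulators 2 rose, the clearer being the ubiquitin ligase Wwp1 (0.35, SE 0.066, adjusted p = 0.00388 in limma). Of 7 further response genes 4 rose and 1 fell. The risers included Ccn2, a target of TGF-beta and of Yap alike (2.52-fold, 1.33, SE 0.078), and Col4a1, a basement membrane collagen (1.64-fold, 0.71, SE 0.071, adjusted p = 6.70e-05 in limma). Atoh8, a BMP-responsive factor, fell 1.29-fold (−0.37, SE 0.087, adjusted p = 0.0122 in limma). Atoh8 was chosen for mention after its value was seen, as the gene of that list that fell. Its knockout values, 8.71, 8.73, 8.51 and 8.55, lay below the controls at 9.23, 8.92, 8.94 and 8.90. With the mesenchymal covariate Gdf5 (adjusted p = 0.110), Acvr1c (0.110), Fstl4 (0.0838) and Atoh8 (0.287) did not pass in limma.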

How the data were processed

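The authors deposited 1 table of log2 expression values from Affymetrix gene arrays, 35556 probe sets in 8 arrays; its log2 scale was read from the values (2.89 to 13.95, array medians 7.21 to 7.30). The summarisation method is not given in the sources used here, and the values were used as deposited. Probe sets with 1 gene symbol numbered 21789, 1621 had several and 12146 none; the latter groups were left out. A gene took its probe set of highest mean level, giving 19938 genes. Group differences were fitted with limma 3.58.1 (R 4.3.3, lmFit and eBayes, two-sided) over all genes, with Benjamini-Hochberg adjustment and a threshold of 0.05, after a test on simulated data.

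The members and lists were chosen with earlier results of these data known. Genes past the threshold were given with every array, the others by role, with values for the 3 nearest the threshold and at most 2 per role with the largest difference, beside small differences that complete a family. Of the further pathway genes the rule allowed 2 per list, those with the smallest p, and Atoh8 was added after its value was seen. Alternatives were other scalings, filters, weights, covariates, a replicate block and left-out arrays. Array number limits the precision. Stk3, which encodes Mst2, and some listed pathway genes were not analysed here. Promoters came from the RefSeq table of GRCm38.p6, a description only.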

Additional observations from a re-analysis of the deposited data

Results flagged for a closer look

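In 7 of 96 sets of 4 arrays (48 genes in 2 groups) 1 array stood farther from the rest than Dixon's critical value for 4 values allows, where chance gives about 5%. In 6 of the 7 that array was knockout replicate 4. It was highest for Tgfb1, at 10.06 against 9.60 to 9.66 in the other knockout arrays, for Tgfb3, at 10.39 against 10.17 to 10.18, for Bmp7, at 7.47 against 6.93 to 6.95, and for Ltbp4, at 10.20 against 9.88 to 9.90. It was lowest for Tgfbr2, at 10.51 against 10.71 to 10.74, and for Id2, at 11.23 against 11.75 to 11.82. Control replicate 2 was lowest for Smad1, at 8.55 against 8.63 to 8.64.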

How the results depend on the processing

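There were 18 alternatives. Of the 22 changed genes 10 kept their call in every alternative that tested them (Tgfb3, Inhba, Fstl3, Nog, Bmp2, Bmp5, Inhbb, Bmp1, Bambi and Id3). Inhba and Nog were tested in 17, as the fit of genes above the median level left them out. Another 12 genes lost their call in at least 1 alternative, and 0 changed direction. The counts of higher and lower genes were 8 and 14, and leaving out 1 array gave 5 to 10 higher and 12 to 14 lower; for the further pathway genes the ranges were 9 to 14 and 4 to 8, and for the median difference −0.0155 to 0.0272. With the mesenchymal covariate 4 were higher and 6 lower, and of the further genes 9 were higher and 0 lower in limma (9 lower at an unadjusted p under 0.05). With only genes above the median level 3 further genes were lower. Replicate numbers are shared by the groups, but same-numbered arrays correlated by only −0.082 to 0.095, so they share a number and no pairing was assumed. Differently numbered arrays correlated by −0.34 (control 3 with knockout 1) to 0.36 (control 3 with knockout 4), and why was not tested. With the replicate block 10 genes were higher and 12 lower, Acvr2b (adjusted p = 0.0620), Smad9 (0.0614) and Smad6 (0.0588) no longer passed, and Bmp6, Tgfbi and Ltbp2 passed. Differences of some genes that did not pass changed sign, and the cause was not tested. Quantile normalization put the median at 0.0265, Bmp7 at 0.0277, Bmpr1a at 0.0254, Smad1 at 0.0062, Smad2 at 0.000205 and Smad3 at 0.0245. Array weights put Tgfb1 at −0.0432, Bmpr1a at 0.0460 and Smad2 at 0.0101, and leaving out knockout replicates 1 and 4 put Tgfb1 at −0.0774 and Bmpr1a at 0.0095. The mesenchymal covariate put Tgfb1 at −0.0695, Tgfbr3 at −0.122, Bmpr1a at 0.119, Bmpr1b at −0.141, Ltbp1 at −0.143, Ltbp2 at −0.0277, Smad2 at 0.0558 and Smad3 at 0.0278, and Xist as a covariate put Bmp3 at 0.0036 and Bmp7 at 0.0201. Leaving out 1 array gave Tgfb1 −0.0848 to 0.0963, Bmp3 −0.124 to 0.0485, Bmp7 −0.146 to 0.0365, Bmpr1a −0.0653 to 0.0439, Bmpr1b −0.103 to 0.151, Acvr2a −0.0084 to 0.0597, Inha −0.101 to 0.0164, Smad1 −0.0789 to 0.0189, Smad2 −0.0670 to 0.0115 and Smad3 −0.0342 to 0.0230.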
